A study of Mus musculus with 8 samples.

Results

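The genes described here are 40 members of the integrated stress response and of one-carbon metabolism, chosen by name as ATF4-axis genes, serine synthesis enzymes and folate enzymes. They were found by symbol among the 54532 genes of a count table of mouse atria. All 40 symbols were present, and 39 members had enough reads to be tested. The study measured polyA RNA of right and left atria, labelled as mixed cells, by bulk RNA sequencing of 8 libraries. All mice were Chd4flox/flox and were injected on postnatal day 2, 4 libraries coming from mice given AAV9:Nppa-Cre (KO) and 4 from mice given AAV9:Nppa-EGFP (control). Chd4 encodes a chromatin remodeller of the NuRD complex, and the series title sets it beside the transcription factor TBX5. Nppa is an atrial muscle gene, so its promoter directs Cre or EGFP mainly to atrial cardiomyocytes, whereas the libraries hold RNA of every cell of the tissue. Cre was present in KO only and EGFP in control only, so effects of either protein and loss of Chd4 cannot be told apart. The sources used here give neither the age at collection nor the number of mice per library.

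In the integrated stress response, kinases that sense haem shortage, misfolded protein or amino acid shortage phosphorylate the translation factor eIF2alpha. General translation then falls while the mRNA of the transcription factor ATF4 is translated more, so ATF4 activity can change with no change of its mRNA. ATF4 and its C/EBP partners drive genes of amino acid uptake, serine synthesis and mitochondrial folate metabolism. Folate carries one-carbon units in parallel arms, a mitochondrial one that makes formate from serine and a cytosolic one that uses them for purines, thymidylate and methionine. In heart muscle this programme is known as a response to mitochondrial dysfunction.

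ATF4 binds a composite C/EBP-ATF response element, and RefSeq promoters on GRCm38.p6 were searched for its letters TGATGNAA on both strands, from 250 bases before to 50 bases after each start. Of the 36 members with a promoter in the table, 8 held a match, against 4.51% of 27025 genes. The matches upstream of the RefSeq start are printed. They show which members hold these letters in this window, whether or not their mRNA moved. By the gene bounds of GENCODE M21 the matches of Asns, Nupr1 and Vldlr lie inside the gene. Eif4ebp1, Slc7a5, Aldh1l2 and Cth had no promoter to search, and elements outside the window or with other letters were not searched for. Capitals mark the match, which reads as its reverse complement in the 5 lines other than those of Asns, Pycr1 and the second Slc7a11 match.
Asns (chr6:7693215-7693242, minus strand): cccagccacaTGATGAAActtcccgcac
Slc7a11, first match (chr3:50443643-50443670, minus strand): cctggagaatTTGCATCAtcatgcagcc
Slc7a11, second match (chr3:50443662-50443689, minus strand): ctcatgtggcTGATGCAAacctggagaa
Chac1 (chr2:119351039-119351066, plus strand): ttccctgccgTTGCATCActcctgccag
Nupr1 (chr7:126625563-126625590, minus strand): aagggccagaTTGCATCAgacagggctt
Pycr1 (chr11:120643834-120643861, minus strand): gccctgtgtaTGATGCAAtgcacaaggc
Vldlr (chr19:27216810-27216837, plus strand): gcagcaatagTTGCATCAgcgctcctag
Fgf21 (chr7:45615612-45615639, minus strand): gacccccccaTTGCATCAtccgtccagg
The remaining match, in Trib3, lies just past its start. Matches stood in 2 of 9 members called higher in KO (Asns and Trib3), in 0 of 8 called lower and in 5 of 18 not called. A T-box motif, AGGTGTNA on either strand, was in 1 of the 36 promoters, that of Atf4, against 3.52% of genes. A match describes letters in a window and is not evidence of binding.

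Levels are CPM, counts per 1e+06 counts of the library on the TMM scale, given for libraries 1 to 4 of each group or as mean ± SD (n = 4). A call means an adjusted p below 0.05 in edgeR's quasi-likelihood test. Total counts were 34002292 to 38228982 in KO and 39804625 to 40588007 in control, and 3 counts in a library corresponded to 0.0744 to 0.0885 CPM. The targeted gene Chd4 fell from 292 ± 13.3 to 185 ± 12.4 CPM, a log2 fold change of -0.66 (SE 0.06, adjusted p = 1.86e-05), with groups that did not overlap. On the second principal component KO 2 (-21.4) and control 2 (-30.4) stood apart from the other libraries (1.3 to 14.5), and Ddx3y, a Y-linked gene, was under 1 CPM in KO 2 and controls 1 and 2 and between 105 and 124 CPM in the rest. No prefix of a library name occurs in both groups, so what the prefixes stand for and the effect of the group cannot be told apart. Of 8 cardiomyocyte markers 6 were called lower and 1 higher, and their summed level was 43100 to 55100 CPM in KO against 63700 to 72200 CPM in control. Of 8 fibroblast markers 5 were called higher and 0 lower, with sums of 7160 to 9450 CPM in KO and 6130 to 6850 CPM in control. For macrophages 4 of 8 were higher and 0 lower (415 to 585 against 343 to 441 CPM), for endothelium 4 of 8 higher and 1 lower (1430 to 1600 against 1290 to 1400 CPM), and for epicardium 4 of 6 higher and 0 lower (587 to 719 against 431 to 573 CPM). No adipocyte marker was called among 5 tested (122 to 294 against 137 to 198 CPM), but Adipoq, Plin1, Cidec and Cfd were at 15.8, 17.1, 16.5 and 39.3 CPM in KO 4 and at most 0.766, 1.18, 0.737 and 1.81 CPM in any other library. None of 8 cycling markers (61.6 to 84.2 against 33 to 79.7 CPM) and none of 5 tested neuronal and Schwann markers (17.3 to 20.7 against 15.6 to 23.8 CPM) was called. No marker was at 0 in all libraries. The part of this shift in the members' changes was not tested, and in bulk tissue fewer cells of a type and less RNA per cell cannot be told apart.

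Of the 39 tested members, 10 were called higher in KO, 9 lower and 20 were not called. Calls were thus made for 48.7% of tested members, where 27.9% of all 18033 tested genes were called. Higher calls took 25.6% of members against 14.8% of all genes, and lower calls 23.1% against 13.1%. The groups did not overlap for 15 members (38.5%), against 29.2% of all genes. The median log2 fold change was 0.01 over the members and 0.01 over all genes, so the members moved in both directions with no common shift. With only controls 1 and 2 in the fit, the controls low in Ddx3y, 5 members were called higher and 6 lower. With only controls 3 and 4 the counts were 9 and 7, without KO 2 and control 2 they were 10 and 6, and without KO 4 they were 7 and 8. The plot of fold changes by role shows 3 roles with no call (kinases, glycine cleavage, and proline synthesis with transsulfuration), homocysteine remethylation with lower calls only, the amino acid transporters with 1 higher call only, and calls in both directions in the other roles.

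**Figure D1:**
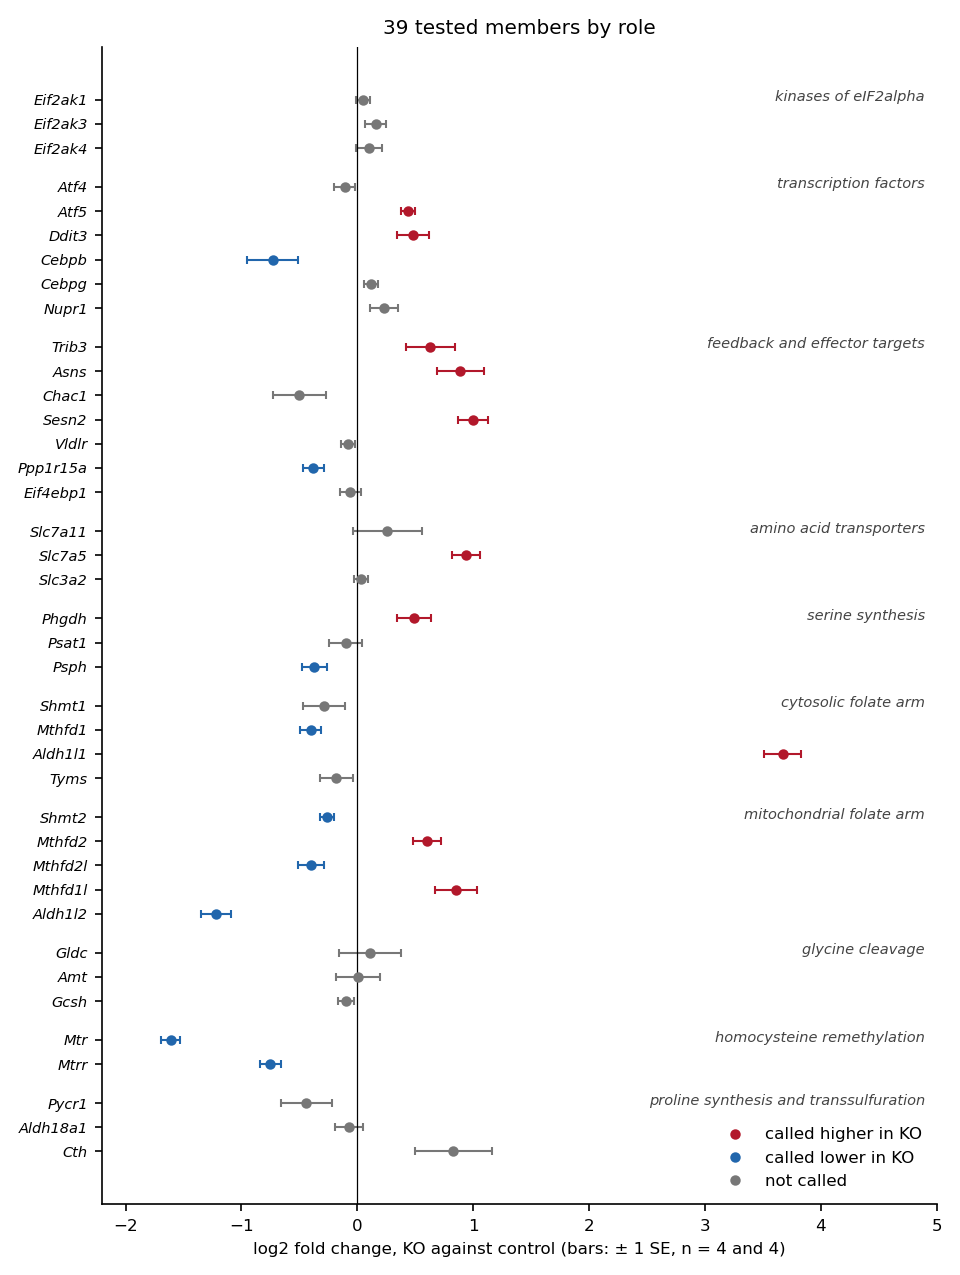
Log2 fold change (x axis, KO against control) of the 39 tested members, grouped by role, with bars of 1 SE (n = 4 and 4). Red points were called higher, blue lower and grey not called; Aldh1l1 at 3.67 and Mtr at -1.61 mark the ends.

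None of the 3 eIF2alpha kinases was called, where 27.9% of all tested genes were called. Eif2ak1, the haem-sensing kinase, had a log2 fold change of 0.05 (SE 0.06, adjusted p = 0.606). The value was 0.16 (SE 0.09, adjusted p = 0.233) for Eif2ak3, the kinase of the endoplasmic reticulum, and 0.10 (SE 0.11, adjusted p = 0.547) for Eif2ak4, which senses uncharged tRNA. The fourth kinase, Eif2ak2, known for sensing double-stranded RNA and listed here among other stress response genes, was higher at 36.6, 40.6, 40.9 and 42.1 CPM in KO against 27.4, 27.8, 31.6 and 26.0 CPM in control. Its groups did not overlap, and its log2 fold change was 0.51 (SE 0.07, adjusted p = 0.000364).

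Among the transcription factors, Atf5 and Ddit3 were higher in KO, Cebpb was lower, and Atf4, Cebpg and Nupr1 were not called. Calls were thus made for 50% of the 6 factors, against 27.9% of all tested genes. Atf4 mRNA stood at 113, 97.3, 97.3 and 108 CPM in KO and at 115, 105, 98.7 and 129 CPM in control, with overlapping groups and a log2 fold change of -0.11 (SE 0.09, adjusted p = 0.38). Atf5, a related factor that is itself controlled in translation and is tied to mitochondrial stress, stood at 126, 120, 135 and 129 CPM in KO against 93.4, 85.2, 101 and 94.5 CPM in control. Every KO library was above every control library, and the change was 1.36-fold (log2 0.44, SE 0.06, adjusted p = 0.000334). Ddit3, which encodes the pro-death factor CHOP, stood at 30.9, 24.7, 27.6 and 28.6 CPM in KO and at 16.1, 25.3, 16.5 and 22.3 CPM in control. Control 2 lay above KO 2, so the groups overlapped, and the log2 fold change was 0.48 (SE 0.14, adjusted p = 0.0295). Leaving out any 1 of KO 1, KO 3, KO 4, control 1 and control 3 ended the Ddit3 call, with adjusted p = 0.0601 to 0.0783. Cebpb, a C/EBP partner of ATF4, fell from 7.32 ± 1.45 to 4.41 ± 1.35 CPM (log2 -0.73, SE 0.22, adjusted p = 0.0307), with control 2 at 5.19 CPM inside the KO range of 2.83 to 5.93 CPM. That call was lost without KO 2 or without control 1, 3 or 4 (adjusted p = 0.0715 to 0.082). For Cebpg the log2 fold change was 0.12 (adjusted p = 0.191) and for Nupr1 it was 0.23 (adjusted p = 0.194). The exons of Atf5, Ddit3 and Cebpb overlap antisense genes (Nup62 and Il4i1, Mars and Gm4189, Tmem189) by 164, 81 and 312 bases, and the strand setting of the counting was not given in the sources used here.

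Of the 7 tested feedback and effector targets, 3 were higher, 1 was lower and 3 were not called. Calls took 57.1% of them, against 27.9% of all tested genes. Sesn2, a leucine sensor that restrains mTORC1, was at 9.94, 12.4, 13.4 and 13.7 CPM in KO and at 5.12, 6.61, 6.43 and 6.57 CPM in control. The groups did not overlap, and the change was 2.00-fold (log2 1.00, SE 0.13, adjusted p = 0.000142). Asns, asparagine synthetase and a standard readout of ATF4, was at 6.61, 4.61, 5.72 and 6.58 CPM in KO and at 4.13, 2.14, 3.39 and 2.98 CPM in control. All KO libraries lay above all control libraries, at 1.86-fold (log2 0.89, SE 0.20, adjusted p = 0.0057, or 0.0504 against controls 1 and 2 alone). Trib3, a pseudokinase that feeds back on ATF4, rose from 3.56 ± 1.05 to 5.52 ± 1.11 CPM (log2 0.63, SE 0.21, adjusted p = 0.0427), but control 2 at 5.04 CPM exceeded KO 1 and KO 2. Leaving out KO 3, KO 4 or any control but control 2 ended the Trib3 call, with adjusted p = 0.0789 to 0.136. Ppp1r15a, the phosphatase subunit that reverses eIF2alpha phosphorylation and another standard target, moved the other way, at 34.1, 30.9, 30.7 and 39.2 CPM in KO, with control at 43.1, 49.3, 38.9 and 44.5 CPM. Its log2 fold change was -0.38 (SE 0.09, adjusted p = 0.00884), with KO 4 just above control 3, and the call ended against controls 3 and 4 alone (adjusted p = 0.0521) or without KO 2 and control 2 (adjusted p = 0.0572). Chac1, which degrades glutathione, had a log2 fold change of -0.50 (adjusted p = 0.134), Vldlr, a lipoprotein receptor, -0.08 (adjusted p = 0.317), and Eif4ebp1, a translation repressor, -0.06 (adjusted p = 0.648). Fgf21, a hormone released under stress, had 3 counts in control 2 and 0 in the other 7 libraries, so it was not tested and no fold is given.

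Slc7a5, the light chain of the large neutral amino acid transporter, was higher in KO, whereas its heavy chain partner Slc3a2 was not called. Slc7a5 was at 18.4, 13.4, 19.6 and 18 CPM in KO and at 8.63, 9.48, 7.94 and 10.1 CPM in control. The groups did not overlap, and the change was 1.92-fold (log2 0.94, SE 0.12, adjusted p = 0.000181). The level of Slc3a2 was 71.5 ± 2.73 CPM in KO against 70.0 ± 4.21 CPM in control (log2 0.03, adjusted p = 0.745). For Slc7a11, the cystine transporter, the log2 fold change was 0.26 with an SE of 0.30 at about 1 CPM (adjusted p = 0.559), and its control libraries ranged from 0.754 to 1.82 CPM.

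The 3 enzymes that make serine from a glycolytic intermediate went different ways. Phgdh, the committing step, was at 14.5, 8.34, 10.4 and 12 CPM in KO and at 8.40, 7.92, 8.14 and 7.79 CPM in control. KO 2 lay inside the control range, and the log2 fold change was 0.49 (SE 0.15, adjusted p = 0.0276). Psat1, the middle step, had a log2 fold change of -0.10 (adjusted p = 0.625). Psph, the last step, fell from 7.75 ± 0.323 to 5.98 ± 0.667 CPM with groups that did not overlap (log2 -0.37, SE 0.11, adjusted p = 0.0274). The calls of Phgdh and Psph were each lost without KO 1, KO 4 or any single control library, with adjusted p = 0.0505 to 0.0733 for Phgdh and 0.0507 to 0.0639 for Psph. Exons of Psph overlap those of antisense Cct6a, which was itself called lower (log2 -0.20), by 452 bases.

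**Figure D2:**
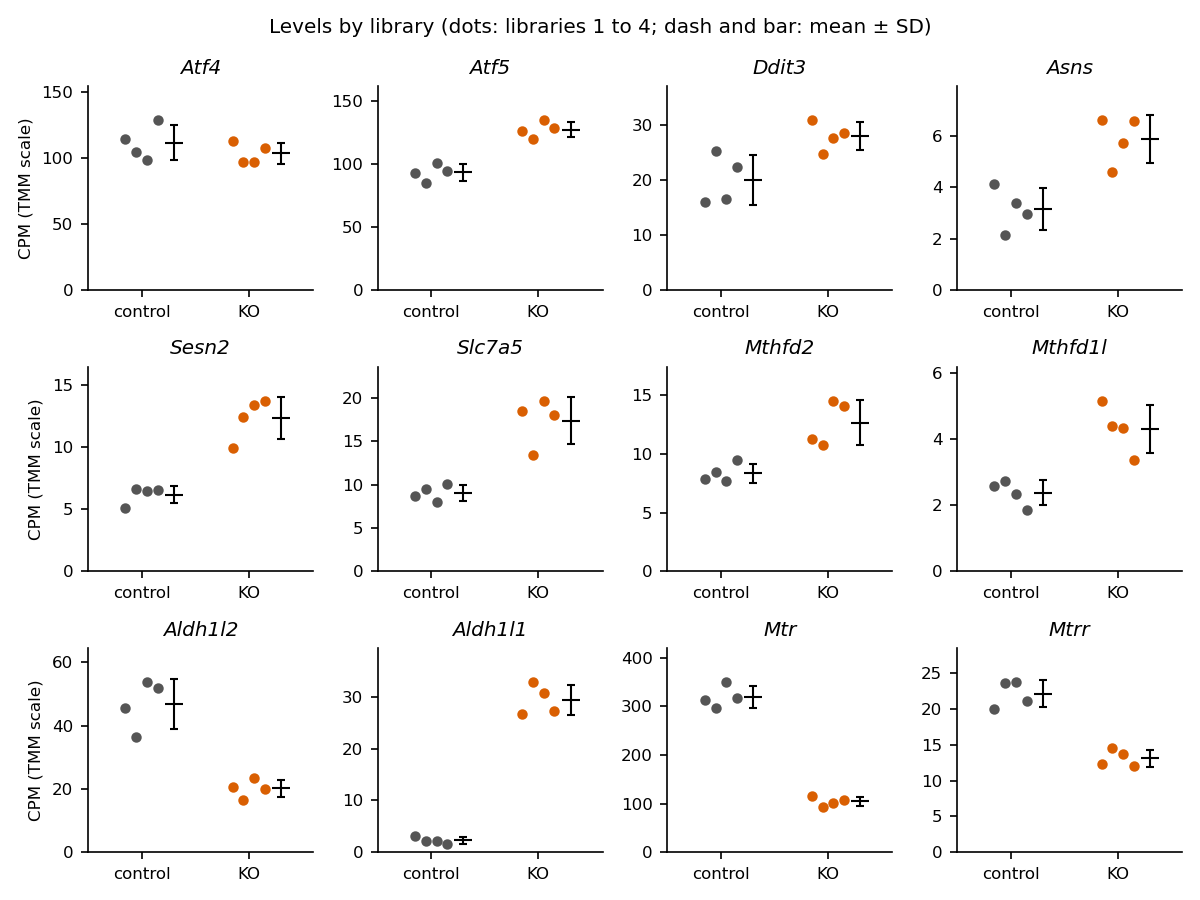
Levels of 12 members in each library (y axes, CPM on the TMM scale, starting at 0), control in grey and KO in orange, with the mean and 1 SD beside the points. The groups overlap for Atf4 and Ddit3 and are separate for the other members drawn.

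In the cytosolic folate arm 1 of 4 members rose, 1 fell and 2 were not called (50% called, against 27.9% of all genes). Aldh1l1, which oxidises formyl-tetrahydrofolate to tetrahydrofolate and carbon dioxide, was at 26.7, 32.8, 30.7 and 27.2 CPM in KO and at 3.09, 2.22, 2.25 and 1.66 CPM in control. The change was 12.7-fold (log2 3.67, SE 0.16, adjusted p = 5.71e-08), with every KO library far above every control library. The gene (ENSMUSG00000030088) lies on GRCm38 at chr6:90486427-90600203, plus strand, and its counts were 4357 in KO and 360 in control. Its exons overlap antisense Gm15756 by 499 bases, a gene with 30 counts in KO and 12 in control. Mthfd1, the cytosolic enzyme that interconverts the formyl, methenyl and methylene forms, was at 26.3, 26.4, 23.3 and 21.4 CPM in KO and at 34.7, 28.5, 32.2 and 32.8 CPM in control. Its groups did not overlap (log2 -0.40, SE 0.09, adjusted p = 0.00497). Shmt1, cytosolic serine hydroxymethyltransferase, had a log2 fold change of -0.29 (adjusted p = 0.256) and Tyms, thymidylate synthase, -0.18 (adjusted p = 0.373).

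All 5 members of the mitochondrial arm were called, 2 higher and 3 lower, and in none of them did the groups overlap. Over all tested genes, 27.9% were called and 29.2% had groups that did not overlap. Mthfd2, the NAD-dependent dehydrogenase and cyclohydrolase best known as an ATF4 target, was at 11.3, 10.8, 14.5 and 14.1 CPM in KO and at 7.88, 8.45, 7.66 and 9.45 CPM in control, 1.51-fold higher (log2 0.60, SE 0.12, adjusted p = 0.00321). Mthfd1l, which releases formate, was at 5.16, 4.39, 4.33 and 3.36 CPM in KO and at 2.60, 2.75, 2.35 and 1.86 CPM in control, 1.80-fold higher (log2 0.85, SE 0.18, adjusted p = 0.00426, or 0.0527 against controls 1 and 2 alone). Each of these enzymes was higher in every KO library than in any control library. Mthfd2l, the paralog of Mthfd2 on the same route to formate, went the other way and fell from 11.0 ± 1.37 to 8.38 ± 0.375 CPM (log2 -0.40, SE 0.11, adjusted p = 0.015, or 0.14 against controls 1 and 2 alone). Shmt2, which feeds the arm from serine, fell from 39.2 ± 1.71 to 32.8 ± 1.20 CPM (log2 -0.26, SE 0.06, adjusted p = 0.00643, or 0.0504 without KO 2 and control 2). Aldh1l2, the mitochondrial counterpart of Aldh1l1, was at 20.8, 16.7, 23.4 and 19.9 CPM in KO and at 45.6, 36.3, 53.8 and 52.0 CPM in control, a log2 fold change of -1.22 (SE 0.13, adjusted p = 0.000101). The 2 formyl-tetrahydrofolate dehydrogenases thus changed in opposite directions. Exons of Aldh1l2 (chr10:83487450-83534140, minus strand) overlap antisense D10Wsu102e by 1056 bases, a gene that was not called (log2 -0.10).

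The arms were compared within each library as log2 ratios of the counts of paired enzymes, which need no scaling between libraries. The ratio of Shmt2 to Shmt1 was 3.56 ± 0.23 in KO and 3.54 ± 0.24 in control, a difference of 0.02 (exact permutation p = 0.886). The ratio of Mthfd2 to Mthfd1 was -1.22, -1.29, -0.69 and -0.60 in KO and -2.14, -1.76, -2.07 and -1.80 in control. The difference was 0.99 toward the mitochondrial enzyme. The ratio of Mthfd1l to Mthfd1 was -2.35, -2.58, -2.42 and -2.67 in KO and -3.73, -3.37, -3.77 and -4.13 in control, a difference of 1.25 in the same direction. The ratio of Aldh1l2 to Aldh1l1 turned over, from 3.88, 4.02, 4.57 and 4.96 in control to -0.36, -0.97, -0.39 and -0.45 in KO, a difference of -4.90. For each of these last 3 pairs the groups did not overlap and the two-sided exact permutation p was 0.0286, the smallest that 4 against 4 libraries can give (0.0381 adjusted over the 4 ratios). The ratios of Mthfd2 and Mthfd1l share Mthfd1 as denominator, which itself fell (log2 -0.40), so they are not independent. Mthfd2l, the paralog of Mthfd2, fell as Mthfd1 did (log2 -0.40) and was not among the pairs.

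**Figure D3:**
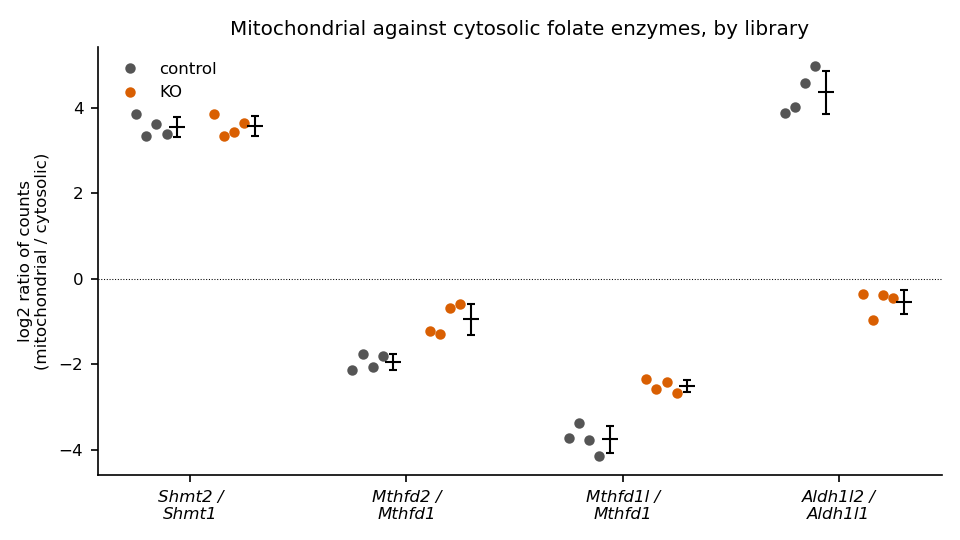
Log2 ratio of mitochondrial to cytosolic enzyme counts (y axis) for 4 enzyme pairs in each library, control in grey and KO in orange, with mean and 1 SD. The groups coincide for Shmt2 to Shmt1, KO is higher for both pairs with Mthfd1, and Aldh1l2 to Aldh1l1 falls from 4.36 to -0.54.

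Summed over an arm as CPM per kilobase of exon, which makes genes of different length comparable, the cytosolic arm was at 13.6 ± 1.15 in KO and 9.64 ± 0.613 in control. Without Aldh1l1 the order was the other way, 7.12 ± 0.64 in KO and 9.13 ± 0.573 in control. The mitochondrial arm summed to 19.1 ± 1.18 in KO and 23.5 ± 1.34 in control, and without Aldh1l2 to 16.4 ± 0.827 and 17.2 ± 0.659. The sums were not tested. The direction of the difference between KO and control in the cytosolic sum depended on Aldh1l1. The mitochondrial sums of KO and control lay closer together without Aldh1l2.

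Both members of homocysteine remethylation fell, where 13.1% of all tested genes were called lower. Mtr, methionine synthase, which passes the methyl group of methyl-tetrahydrofolate to homocysteine, was at 116, 92.5, 102 and 108 CPM in KO and at 314, 296, 350 and 317 CPM in control. The level in control was 3.05 times that in KO (log2 -1.61, SE 0.08, adjusted p = 1.1e-07), and the groups were far apart. Mtrr, the reductase that reactivates methionine synthase, was at 12.3, 14.5, 13.7 and 12 CPM in KO and at 20, 23.6, 23.7 and 21.1 CPM in control, also without overlap (log2 -0.75, SE 0.09, adjusted p = 9.08e-05). Mtr (ENSMUSG00000021311) lies on GRCm38 at chr13:12182712-12258113, minus strand. The cardiomyocyte gene Actn2 ends 11313 bases upstream of it on the same strand and had a log2 fold change of -0.31. The 8 cardiomyocyte markers had log2 fold changes from -0.59 (Myh6) to 0.28 (Pln), and the part of that shift in the fall of Mtr and Mtrr was not tested.

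The glycine cleavage system, which yields one-carbon units from glycine in mitochondria, had no called member among 3. Of all tested genes 27.9% were called. The log2 fold change was 0.11 for Gldc (SE 0.27, adjusted p = 0.797), 0.01 for Amt (SE 0.19, adjusted p = 0.974) and -0.10 for Gcsh (SE 0.07, adjusted p = 0.326). The proline enzymes Pycr1 (log2 -0.44, adjusted p = 0.171) and Aldh18a1 (log2 -0.07, adjusted p = 0.703) were not called, although Pycr1 was called lower without control 2 (adjusted p = 0.0305). Cth, which makes cysteine by transsulfuration, was at 0.442, 0.744, 0.409 and 0.542 CPM in KO and at 0.208, 0.378, 0.306 and 0.306 CPM in control. Its groups did not overlap, its counts were 80 and 47, and it was not called (log2 0.83, SE 0.33, adjusted p = 0.0793).

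Ordered by level per kilobase of exon in control, the members were led by Atf4 (47.5 ± 5.60), Atf5 (46.9 ± 3.25), Mtr (37.5 ± 2.64) and Vldlr (29.7 ± 1.27). Atf4 and Atf5 did not differ beyond their spread in control, while in KO Atf5 stood at 64.0 ± 3.13 and Atf4 at 44.1 ± 3.35. Mtr went from rank 3 of 40 in control to rank 8 in KO, at 12.3 ± 1.16. Aldh1l1 went from rank 36 (0.510 ± 0.131) to rank 13 (6.50 ± 0.644), and Aldh1l2 from rank 15 (6.25 ± 1.05) to rank 25 (2.69 ± 0.369). The kinases, Slc3a2, Gcsh and Cebpg moved by 2 ranks or fewer.

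**Figure D4:**
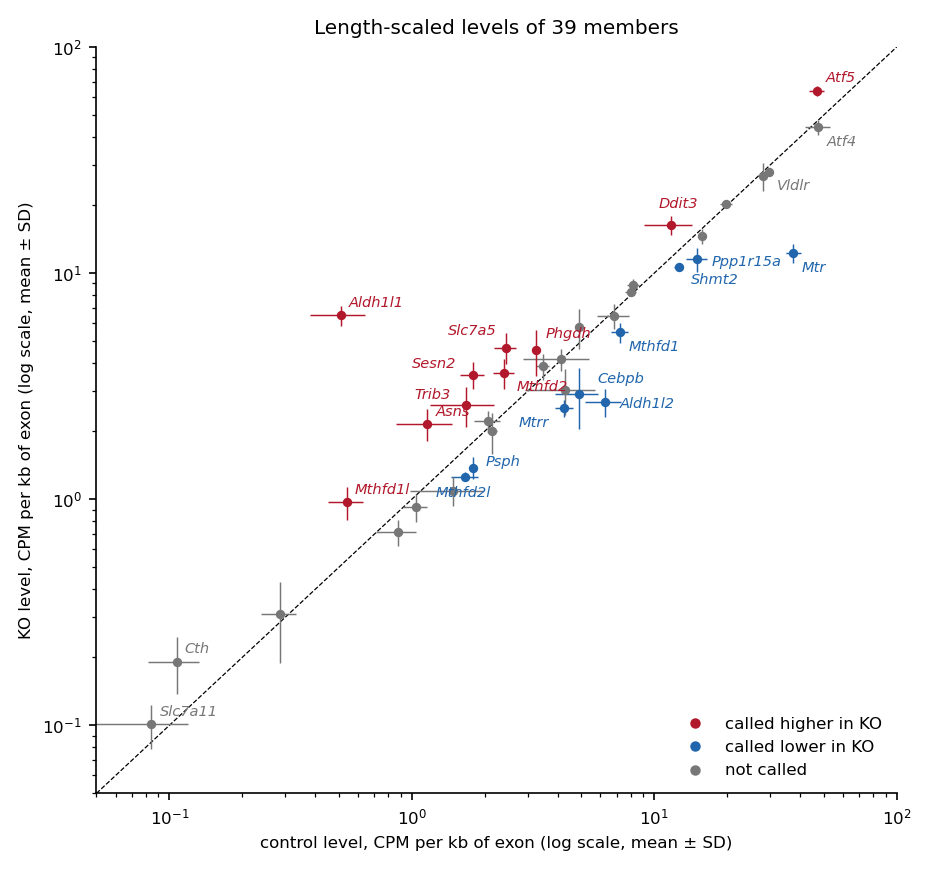
Mean level of 39 members in control (x axis) and KO (y axis), both in CPM per kilobase of exon on log axes, with bars of 1 SD over 4 libraries and a dashed line of equal level. Red members were called higher, blue lower and grey not called; Aldh1l1 lies farthest above the line and Mtr far below it among highly expressed members.

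Of 26 further integrated stress response genes 3 were higher and 5 lower (30.8% called, near the 27.9% of all genes), with a median log2 fold change of -0.09. Gdf15, a secreted stress hormone, rose from 1.17, 1.18, 1.68 and 1.30 CPM in control to 4.39, 4.29, 5.83 and 4.77 CPM in KO (3.61-fold, log2 1.85, SE 0.18, adjusted p = 1.97e-05). Gpt2, the mitochondrial alanine aminotransferase, fell from 31.1 ± 2.34 to 15.4 ± 3.27 CPM (log2 -1.01, adjusted p = 0.000375). Oma1, the mitochondrial protease that relays stress to the pathway, fell from 20.9 ± 1.42 to 15.1 ± 0.676 CPM (log2 -0.47, adjusted p = 0.000738). Atf3, chosen after its values were seen, was at 25.9, 26.0, 20.7 and 52.7 CPM in KO and 8.45 to 10.4 CPM in control (log2 1.73, adjusted p = 0.00359, or 0.0612 against controls 1 and 2 alone and 0.0739 against controls 3 and 4 alone). KO 4 was its highest library, and without it the log2 fold change of Atf3 was 1.36. The adipocyte transcripts of KO 4 moved with this value, and their part in it was not tested. With Atf3 and Eif2ak2, all 3 higher genes of the list are named, but of the 5 lower ones only Gpt2 and Oma1.

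None of the 21 genes listed as cytosolic aminoacyl-tRNA synthetases, a group with many ATF4 targets, was higher. Of the 21 genes, 5 were lower (23.8% called, against 27.9% of all genes). The list also holds Xpot, a tRNA exporter and not a synthetase, which was not called (log2 0.01, adjusted p = 0.917). Farsb (log2 -0.60, adjusted p = 0.0001) and Kars (log2 -0.35, adjusted p = 0.00292) kept their calls under every scaling, whereas Iars and Vars (log2 -0.23 and -0.24) lost theirs with library totals alone. Leaving out any 1 of KO 2, KO 3, KO 4, control 1 and control 3 also ended the Iars call, with adjusted p = 0.0531 to 0.0736, and that of Vars without KO 2, KO 3 or control 4 (adjusted p = 0.0633 to 0.0785). Of 20 genes of the endoplasmic reticulum unfolded protein response (10% called) 1 was higher, Edem1 (log2 0.42, adjusted p = 0.0122, or 0.0789 against controls 3 and 4 alone), and 1 lower, Herpud1 (log2 -0.48, adjusted p = 0.00968). Dnajc3 (log2 0.24, adjusted p = 0.0572) and Manf (log2 0.35, adjusted p = 0.076) were not called, although both were with library totals alone and without KO 2, Dnajc3 also without KO 3 or with no filter on low counts, and Manf also with DESeq2. Of 12 genes of mitochondrial protein quality control 0 were higher and 4 lower (33.3% called): the chaperones Hspa9 (log2 -0.40), Hspe1 (log2 -0.48) and Dnaja3 (log2 -0.28) and the protease subunit Afg3l2 (log2 -0.32).

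Of 24 further tested folate and methyl cycle genes 6 were higher and 1 lower (29.2% called, near the 27.9% of all genes). Ftcd, which feeds histidine-derived units into folate, rose from 0.390, 0.378, 0.383 and 0.535 CPM in control to 4.84, 3.72, 4.63 and 3.90 CPM in KO (10.1-fold, log2 3.33, SE 0.20, adjusted p = 5.76e-07). Mat1a, the liver form of methionine adenosyltransferase, rose from 0.102 ± 0.0751 to 1.48 ± 0.268 CPM (log2 3.81, SE 0.42, adjusted p = 4.9e-05). Its control level rests on 16 counts, and its log2 fold change was 3.10 against controls 1 and 2 alone and 5.13 against controls 3 and 4 alone. Sardh, which demethylates sarcosine in mitochondria, rose from 20.4, 23.6, 20.9 and 21.0 CPM in control to 49.3, 45.3, 46.9 and 46.2 CPM in KO (2.19-fold, log2 1.13, adjusted p = 4e-07). Dld, a subunit shared by glycine cleavage and the mitochondrial dehydrogenases, fell (log2 -0.28, adjusted p = 0.0107, or 0.0777 against controls 1 and 2 alone). Aldh1l1, Ftcd and Mat1a are abundant in liver, so 7 hepatocyte markers were examined after these values were seen. Only 1 could be tested and it was not called. Their summed level was 1.33 to 25 CPM in KO and 0.97 to 1.74 CPM in control, the top value being KO 1, where Alb reached 15.3 CPM. Alb was at most 0.252 CPM in every other library, while Aldh1l1, Ftcd and Mat1a were at 27.2 to 32.8, 3.72 to 4.63 and 1.22 to 1.85 CPM in KO 2, 3 and 4 and at 26.7, 4.84 and 1.42 CPM in KO 1. The source of these transcripts was not tested.

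In purine synthesis, which takes one-carbon units from cytosolic folate, 2 of 13 genes were higher and 4 lower (46.2% called). Of all tested genes 27.9% were called. Ppat, the committing step, fell from 52.5, 50.4, 45.9 and 49.4 CPM in control to 23.4, 22.3, 20.3 and 17.3 CPM in KO (log2 -1.25, SE 0.09, adjusted p = 1.96e-06). Gart (log2 -0.38, adjusted p = 0.0013), whose product uses formyl-tetrahydrofolate, and Adsl (log2 -0.45, adjusted p = 0.00219) were lower, and Adss, the first step toward adenylate, was higher (log2 0.47, adjusted p = 0.000266).

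**Figure D5:**
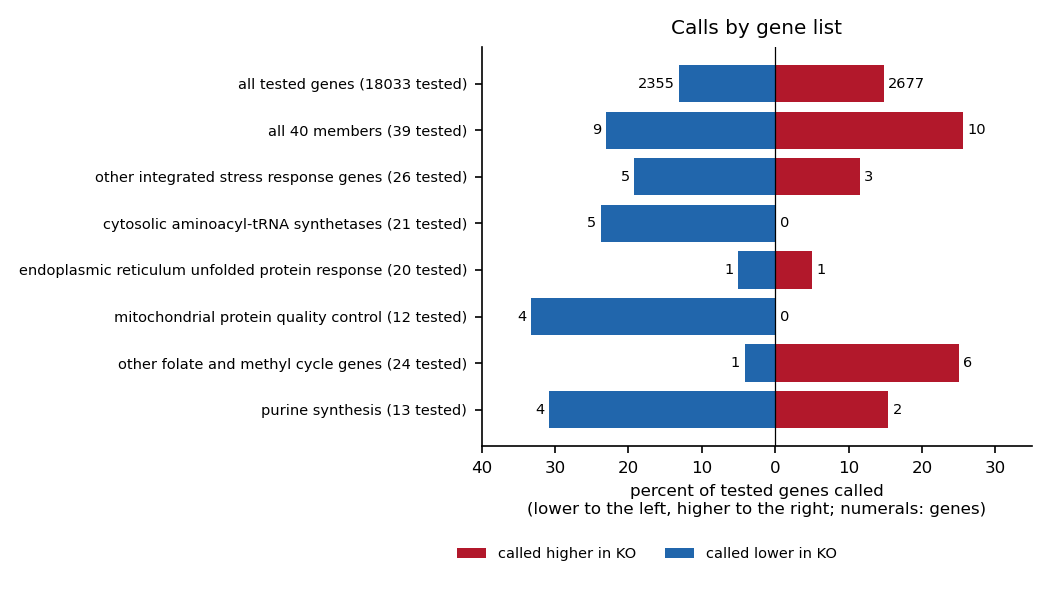
Percent of tested genes called lower (left, blue) or higher (right, red) in KO, for all genes, the 40 members and 6 further gene lists, with the number of genes at each bar (x axis, percent). The members have 10 higher and 9 lower calls. Neither the aminoacyl-tRNA synthetase list, which includes the tRNA exporter Xpot, nor the mitochondrial quality control list has a higher call.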

How the data were processed

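The table the authors deposited gives raw read counts per gene, as whole numbers, for the 8 libraries. The submitters' processing notes name STAR, DESeq2 and the build mm10. The sources used here name no counting tool, strand setting or annotation release. Vector and number in a column name identified its sample. Ddit3 stood on 2 gene identifiers, of which the one with 0 counts was set aside.

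Counts were analysed with edgeR 4.0.16 in R 4.3.3. filterByExpr (minimum count 10, minimum total 15) kept 18033 genes. The contrast of KO to control used the robust quasi-likelihood F test with TMM factors, no covariate and 6 residual degrees of freedom, with Benjamini-Hochberg adjustment over all tested genes. The code was tested on simulated data. DESeq2 1.42.0 and limma-voom 3.58.1 were among 19 alternatives. Ratios used a prior count of 0.5. Exon lengths, coordinates and overlaps came from GENCODE M21 (GRCm38, the assembly of mm10), promoters from RefSeq. Floors cover counting error only.

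All members were reported by role, as were, of each further list, the 4 genes with the smallest p, plus Eif2ak2, Gdf15 and Chd4. A few further genes of the lists are counted but not reported here. Other names, Atf3 among them, and the hepatocyte list were chosen after values were seen. Members and lists were chosen with earlier results of these data known. Chi-square per degree of freedom was 11.2 to 28.2 between libraries of a group, well above sampling noise, so none was counted as a copy. Whether the libraries of a group are separate mice is not labelled, and p-values reflect only the spread of these samples, possibly technical.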

Additional observations from a re-analysis of the deposited data

Results flagged for a closer look

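In 88 groups of 4 libraries, 6 had a library whose gap to the nearest other exceeded Dixon's 95% critical value, and chance gives about 1 in 20. Eif2ak4 was lowest in KO 1 at 13.7 CPM, against 17.2 to 17.6 CPM in the other KO libraries. Sesn2 was lowest in control 1 at 5.12 CPM, farther from the KO range than the other controls. Fgf21 had counts in control 2 only, at 0.0756 CPM. Vldlr was highest in KO 4 at 301 CPM, against 276 to 277 CPM in the other KO libraries and 287 to 312 CPM in control. Aldh18a1 was lowest in control 2 at 21.5 CPM, against 29.0 to 30.4 CPM in the other controls. The log2 ratio of Aldh1l2 to Aldh1l1 was lowest in KO 2 at -0.973, against -0.45 to -0.36 in the other KO libraries.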

How the results depend on the processing

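Of the 19 called members, 9 had the same call under all 19 alternatives: Aldh1l1, Atf5, Mthfd2, Sesn2 and Slc7a5 higher, and Aldh1l2, Mthfd1, Mtr and Mtrr lower. No member changed direction with a call. With 1 library left out in turn, 7 to 10 members were higher, 7 to 9 were lower and 3915 to 5301 genes were called, and the ratio differences ranged from -0.07 to 0.12 for Shmt2 to Shmt1, 0.87 to 1.10 for Mthfd2 to Mthfd1, 1.12 to 1.37 for Mthfd1l to Mthfd1 and -5.06 to -4.70 for Aldh1l2 to Aldh1l1. Against controls 1 and 2 alone 5 members were higher and 6 lower, and Asns, Mthfd1l, Mthfd2l, Ddit3, Trib3, Phgdh, Cebpb and Psph were no longer called (adjusted p = 0.0504, 0.0527, 0.14, 0.125, 0.261, 0.155, 0.169 and 0.099). Against controls 3 and 4 alone the counts were 9 and 7, and Ppp1r15a, Phgdh and Psph were no longer called (adjusted p = 0.0521, 0.116 and 0.0833). Without KO 2 and control 2 they were 10 and 6, with Shmt2, Ppp1r15a and Psph no longer called (adjusted p = 0.0504, 0.0572 and 0.0781). Under these 3 settings, in that order, the differences were 1.00, 0.98 and 1.17 for Mthfd2 to Mthfd1, 1.05, 1.45 and 1.40 for Mthfd1l to Mthfd1, and -4.49, -5.31 and -4.87 for Aldh1l2 to Aldh1l1, each at the smallest exact permutation p that the design allows (0.0667, 0.0667 and 0.1). Atf3 was not called against either pair of controls (adjusted p = 0.0612 and 0.0739). With library totals alone 70.1% of called genes were higher, against 53.2% with TMM, the median of all genes was 0.09, Cebpg was called (adjusted p = 0.039) and Psph was not (adjusted p = 0.0911). With Y-linked expression as a covariate 7 members were higher and 9 lower, and Ddit3, Trib3 and Phgdh were not called (adjusted p = 0.0587, 0.0587 and 0.0653). Phgdh was not called with limma-voom (adjusted p = 0.0644), nor Ddit3 and Psph with no filter on low counts (adjusted p = 0.0566 and 0.0583). With the replicate block, 4757 genes, 8 higher and 9 lower members were called, and Ddit3 and Trib3 were not (adjusted p = 0.0563 and 0.0508), while Dnajc3 was (adjusted p = 0.0241). Same-numbered libraries correlated at -0.015, 0.303, -0.056 and 0.105 in their deviations from the group means. Differently numbered libraries correlated at -0.225 to 0.173, so the value of KO 2 and control 2 was the highest. In the main fit the numbers were not taken as pairs. The causes of these changes were not tested. Fgf21, with 3 counts in all, could not be tested at this depth.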
